A study of Mus musculus with 2 samples.

Results

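The genes described here are 10 genes of prostaglandin and leukotriene metabolism, Ptgs1, Ptgs2, Ptges, Ptgis, Ptgds, Tbxas1, Hpgd, Alox5ap, Alox15 and Ptger4, taken by symbol from the 32285 genes of the count matrices. Prostanoids are made from arachidonic acid, which phospholipases release from membranes and the cyclooxygenases Ptgs1 and Ptgs2 turn into prostaglandin H2. Terminal synthases then make prostaglandin E2, prostaglandin I2 (prostacyclin), prostaglandin D2 or thromboxane, and uptake followed by oxidation ends the signal. Leukotrienes come from the same fatty acid through 5-lipoxygenase and its activating protein. In the lung these lipids act on vessel tone, airway smooth muscle and the recruitment of leukocytes.

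The study compared lung cells of WT mice (strain C57B6/J) with lung cells of Plaur-/- mice, in which the urokinase receptor gene was disrupted. The labels give the same strain name for both. All mice had been sensitised with LPS and OVA (lipopolysaccharide and ovalbumin) on days 0 and 7 and exposed to OVA aerosol on day 14, so no unchallenged lung is among these samples. Digested lungs were sorted for CD45.2-negative cells, a gate that removes most blood-derived cells, and about 16000 live cells were loaded per library with an aim of 10000. The series names 8 mice per genotype, without saying how many went into each of the 2 libraries, 1 per genotype. There is therefore no replicate check on any difference, and every comparison below is between 2 libraries.

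After filtering, 10225 cells of the WT library and 8934 of the other library remained, with medians of 4837 and 5537.5 UMIs (unique molecular identifiers, that is counted molecules) per cell. Plaur mRNA was counted in both, for example at 474 and 240 CPM (UMIs scaled to a common total per class) in aerocyte-like cells and at 1.84 and 16.7 CPM in AT2-like cells. The part of the gene that was deleted is not named in the labels, so the transcript does not check the genotype, and the second library is called KO-labelled. Clustering that left out the 10 genes gave 27 clusters, of which 15 classes or clusters with 20 or more cells in each library were compared. Most classes are named for the preset markers that lead them, such as alveolar type 2 (AT2)-like cells. Cluster 6 had most markers from adventitial fibroblasts, but its top 10 genes held the alveolar fibroblast markers Mfap4 and Inmt, beside Saa3, Timp1 and collagens. Cluster 11 had most markers from AT2 cells, but its top 10 held the alveolar type 1 markers Ager and Aqp5, beside Sprr1a, Krt8 and Sftpc. Both keep their numbers. Cluster 18, led by Ccl3, Ccl4 and Gzmb, met no name. The airway secretory-like, B-like, neutrophil-like, smooth muscle-like and neuroendocrine-like classes and cluster 18 had fewer than 100 cells in a library. No cluster met the marker rule for eosinophils, mast cells, dendritic cells, pericytes or platelets. The level of Sftpc, the surfactant gene of AT2 cells, outside those cells differed between the libraries, at 2681 CPM in WT and 19226 CPM in KO-labelled general capillary-like cells. Whether free RNA or mixed droplets gave it was not tested, and levels that RNA from AT2 cells would give, scaled by Sftpc, are set beside results it touches.

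The genes differed in the cells that held them. Hpgd levels were highest in the general capillary-like, venous-like and aerocyte-like endothelial classes. Those of Ptgis were highest in mesothelial-like cells, those of Alox5ap in neutrophil-like cells and those of Tbxas1 in macrophage or monocyte-like cells. AT2-like cells held most UMIs of Ptgs1 and Ptges, although the Ptgs1 level was as high in venous-like cells and the Ptges level higher in fibroblasts. Ptgs2 levels were highest in neutrophil-like, venous-like and adventitial fibroblast-like cells, while AT2-like cells, at a lower level, held 31.5% of its WT and 64.7% of its KO-labelled UMIs. Ptgds and Alox15 were scarce, with 92 and 36 UMIs in both libraries together.

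**Figure D1:**
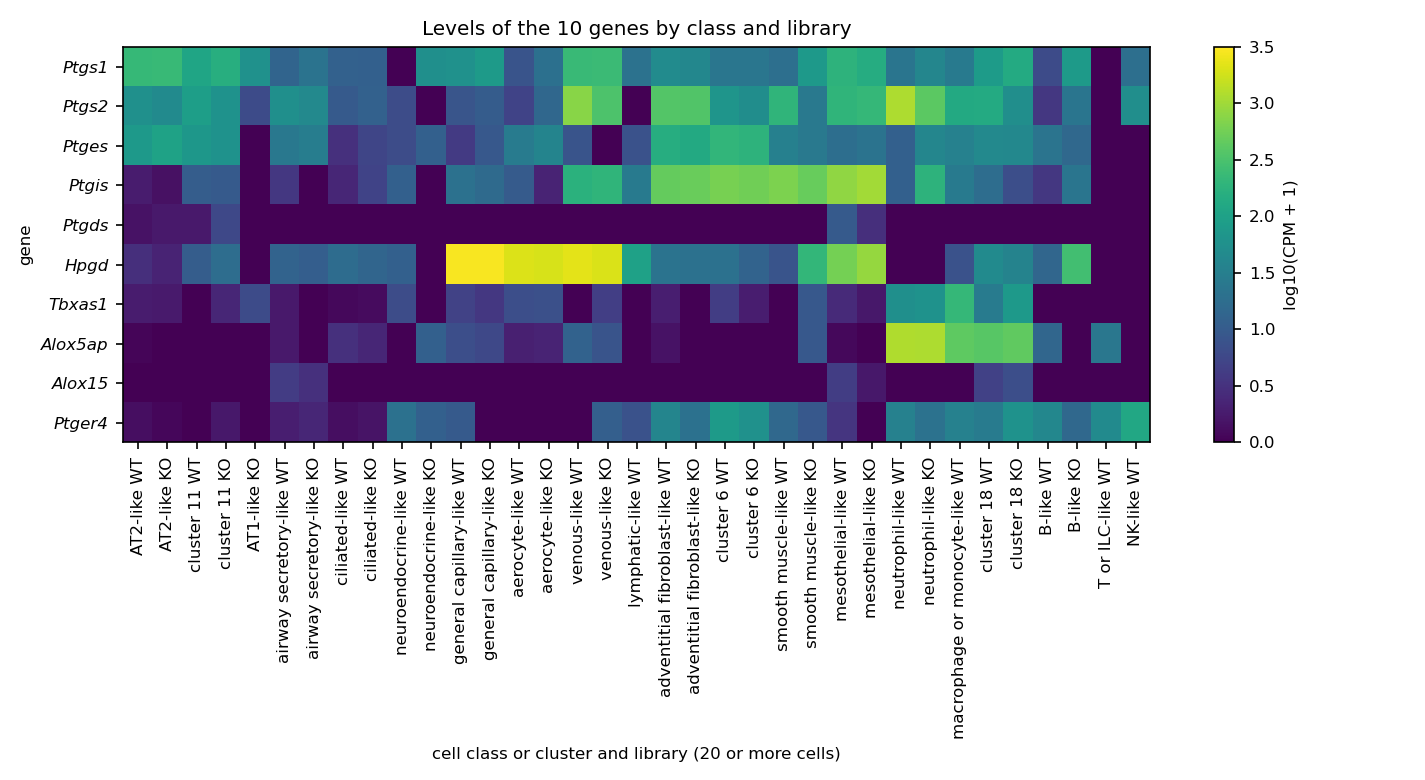
Levels of the 10 genes (rows) in each class or cluster of 20 or more cells (columns, WT beside KO-labelled), as log10 of CPM plus 1. In both libraries Hpgd was highest in the general capillary-like, aerocyte-like and venous-like columns, and Ptgis in the mesothelial-like columns.

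Of 150 pairs of a gene and a compared class, 63 had at least 20 UMIs over both libraries and were given a ratio. The KO-labelled level was at least 2-fold higher in 7 pairs (11.1%) and at least 2-fold lower in 6 (9.52%). Over all genes these shares were 2.31% and 5.58% of 117469 pairs. In classes with 100 or more cells in each library, 3 of 46 pairs (6.52%) were higher and 3 (6.52%) lower, where all genes gave 1.82% and 3.67%. Those 3 higher pairs, Ptgs1 in aerocyte-like and Ptges and Ptgis in ciliated-like cells, rested on 28 UMIs or fewer each. The 3 lower pairs were Ptgs2 in venous-like, Ptgds in mesothelial-like and Ptgis in AT2-like cells. The median log2 ratio of the 63 pairs was -0.05, beside -0.09 for all genes. The 95% interval of the ratio lay above 0 for 12 pairs, below 0 for 13 and held 0 for 38. No such count was made over all genes, so these numbers are not a trait of the 10 genes. The intervals, like all others here, cover counting error only.

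Ptgs1 encodes cyclooxygenase-1, the isoenzyme usually present without a stimulus (chromosome 2 from 36230426 to 36252272, GRCm38, plus strand, 11 exons). Ptgs2 encodes cyclooxygenase-2, the inducible isoenzyme (chromosome 1 from 150100031 to 150108227, plus strand, 10 exons). The windows around their RefSeq starts (GRCm38.p6, 250 bases before to 50 after) are shown because the isoenzymes share the first step of prostanoid synthesis. They are chr2:36230176-36230475 and chr1:150099781-150100080, both on the plus strand, and capitals mark motif matches.

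Ptgs1: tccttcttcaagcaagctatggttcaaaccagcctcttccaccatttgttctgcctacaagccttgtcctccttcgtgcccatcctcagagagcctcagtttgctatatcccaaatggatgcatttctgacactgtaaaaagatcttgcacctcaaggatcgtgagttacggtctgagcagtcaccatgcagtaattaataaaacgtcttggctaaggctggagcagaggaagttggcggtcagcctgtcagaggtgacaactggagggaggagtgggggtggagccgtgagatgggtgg

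Ptgs2: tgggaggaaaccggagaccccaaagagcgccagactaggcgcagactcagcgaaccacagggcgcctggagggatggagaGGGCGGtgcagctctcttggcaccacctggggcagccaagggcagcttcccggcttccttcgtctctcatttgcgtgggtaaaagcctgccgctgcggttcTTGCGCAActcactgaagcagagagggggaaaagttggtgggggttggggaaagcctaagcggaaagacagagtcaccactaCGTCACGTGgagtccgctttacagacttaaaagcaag

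The Ptgs2 window held a GC box (GGGCGG) at -170 to -165 and the palindrome TTGCGCAA, read by C/EBP factors, at -69 to -62. Downstream of the start, a cAMP response element half-site (TGACG, on the minus strand) at 14 to 18 overlapped an E-box (CACGTG) at 17 to 22. The Ptgs1 window held no match to these motifs, nor to TATAAA, the AP-1 motif TGANTCA or the GAS motif TTCNNNGAA, all searched on both strands. Of 32851 promoter windows in the table, 35.7% held the GC box, 0.183% TTGCGCAA, 20.8% TGACG and 7.15% CACGTG. The other motifs were in 13.6% (TATAAA), 7.81% (AP-1) and 8.3% (GAS). The Ptgs2 window was 59.3% G or C with 16 CpG sites and the Ptgs1 window 50.7% with 6, beside medians of 52.7% and 7. Ptges, Ptgds, Hpgd, Tbxas1 and Ptger4 were also matched in the table, 7 of the 10 genes in all, and Ptgis, Alox5ap and Alox15 were not.

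Ptgs1 was an AT2 transcript by number of molecules. AT2-like cells held 76.3% of its WT UMIs and 90.8% of its KO-labelled UMIs. Its level there was 217 CPM in WT (95% Poisson interval 211 to 222) and 226 in KO-labelled cells (221 to 231), a log2 ratio of 0.06 (0.01 to 0.11). A UMI was seen in 65.1% and 64.5% of AT2-like cells, beside 5.64% and 4.1% of ciliated-like cells of nearly the same depth, with medians of 6385 and 6180.5 against 5958.5 and 5953 UMIs. With cells thinned to 1000 UMIs the shares were 18.4% and 19.2% of AT2-like cells and 1.58% and 0.687% of ciliated-like cells.

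Venous-like cells had 236 CPM of Ptgs1 in WT (192 to 287) and 244 in KO-labelled cells (190 to 309). Their interval overlapped that of AT2-like cells in both libraries, so the order of these classes was not resolved. Mesothelial-like cells, the lining of the pleura, followed with 183 CPM in WT and 146 in KO-labelled cells (log2 ratio -0.32, -0.54 to -0.11). Cluster 11 had 113 and 155 CPM (0.46, 0.15 to 0.76). General capillary-like cells had 58.1 and 78.7 CPM (0.44, 0.05 to 0.82), where RNA from AT2 cells, scaled by Sftpc, would give 3.72 and 26.0 CPM. The largest ratio of Ptgs1, 1.41 (0.03 to 2.94), was in aerocyte-like cells, the capillary cells of gas exchange. It rested on 7 and 15 UMIs, or 7.04 and 18.7 CPM, beside 2.02 and 15.7 CPM that RNA from AT2 cells would give. The part of AT2 RNA in this ratio was not tested.

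In WT, Ptgs2 was highest in neutrophil-like cells, a class of 145 WT and 25 KO-labelled cells that escaped the CD45.2 gate. The level was 1166 CPM in WT (1013.9 to 1333.5) and 420 in KO-labelled cells (260 to 642), a log2 ratio of -1.47 (-2.20 to -0.82). A Ptgs2 UMI was in 78 of 145 and 9 of 25 cells. In this small class 20.2% of all genes were at least 2-fold lower in the KO-labelled library, and Sftpc stood at 968 and 38732 CPM. The ratio was -1.31 with genes of other compartments left out of the totals and -0.80 with the cells marked as doublets kept.

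Venous-like cells, the endothelium that lines post-capillary veins, came next in WT. In the KO-labelled library the intervals of neutrophil-like, adventitial fibroblast-like (305 to 410) and venous-like cells overlapped, so their order was not resolved. Ptgs2 stood at 746 CPM in 196 WT cells (666 to 833) and 329 CPM in 108 KO-labelled cells (265 to 403), 2.27-fold lower (log2 ratio -1.18, -1.53 to -0.84). The Poisson intervals of the 2 libraries did not overlap, but they take every UMI as independent. The 20 WT cells with the most Ptgs2 held 62.7% of its UMIs, and the 11 such KO-labelled cells 69.9%. Among all genes measured in venous-like cells 5.63% were at least 2-fold lower. The other members in the same cells had ratios of 0.05 for Ptgs1, 0.19 for Ptgis and -0.18 for Hpgd. A Ptgs2 UMI was in 38.8% of WT (31.9 to 46.0) and 30.6% of KO-labelled cells (22.1 to 40.2), and cells with a UMI had on average 4.16 and 2.82 of them. After thinning to 1000 UMIs the shares were 28.2% and 16.2%. In general capillary-like cells, the nearest class, 0.678% and 0.908% of cells had a UMI, at medians of 1338 and 1342 UMIs against 1885.5 and 2100.5. Over 16 alternatives of filter, clustering and scaling the venous-like ratio lay between -1.22 and -0.99.

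Transcripts of other cell types were high in the KO-labelled venous-like cells: Sftpc stood at 1140 CPM in WT and 17696 in KO-labelled cells, and Scgb1a1, of airway secretory cells, at 1546 and 34140. A single KO-labelled cell held 9620 of the 9660 Scgb1a1 UMIs. With genes of other compartments left out of the totals the Ptgs2 ratio was -1.08. RNA from AT2 cells would give 0.415 and 4.88 CPM of Ptgs2 there.

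Within both libraries the venous-like cells with Ptgs2 were richer in Vcam1, Selp and Sele, adhesion molecules that catch leukocytes. These genes are preset markers of venous cells, and Vcam1 and Selp were among the markers that named this class. Whether the link goes beyond how venous a cell was is thus not tested. In the WT library Vcam1 stood at 7717 CPM in the 76 cells with a Ptgs2 UMI and 2506 CPM in the others. In the KO-labelled library the 33 cells with Ptgs2 had 4468 CPM and the others 1729. Selp, or P-selectin, was at 3301 against 894 CPM in WT and 1638 against 434 in KO-labelled cells. Sele, or E-selectin, was at 563 against 46.4 CPM and 249 against 76.2. The endothelial junction gene Cldn5 went the other way. It was at 1131 CPM in cells with Ptgs2 against 2232 in the others in WT, and at 587 against 2585 in KO-labelled cells. Over single cells the correlation of log levels with Ptgs2 was 0.50 in 196 WT and 0.41 in 108 KO-labelled cells for Vcam1. It was 0.45 and 0.40 for Selp, and 0.47 and 0.31 for Sele. These points share their library, and cells with Ptgs2 were also deeper, with medians of 2256.5 against 1715 UMIs in WT and 2815 against 1997 in KO-labelled cells.

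The other main sources of Ptgs2 differed little between the libraries. Adventitial fibroblast-like cells had 369 and 355 CPM (log2 ratio -0.06, -0.30 to 0.18), and mesothelial-like cells 191 and 216 (0.17, -0.01 to 0.36). Both intervals leave out a 2-fold change. In both classes a minority of cells carried most of it. The 103 mesothelial-like WT cells with the most Ptgs2 held 78.4% of its UMIs in that class. For the 47 adventitial fibroblast-like WT cells with the most the share was 67.9%. AT2-like cells, with 56.8 and 46.0 CPM (-0.30, -0.41 to -0.20), were lower in KO-labelled cells. The AT2 ratio was -0.18 with TMM scaling and -0.03 with thinned cells.

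Smooth muscle-like cells had 54 Ptgs2 UMIs in 14 of 83 WT cells (195 CPM) and 3 UMIs in 1 of 35 KO-labelled cells (24.8 CPM). The log2 ratio was -2.97 (-5.30 to -1.35), and 7.78% of all genes were at least 2-fold lower in this class. After thinning, 8.97% of 78 WT cells and none of 34 KO-labelled cells had a Ptgs2 UMI. The thinned ratio of -0.54 enters that count of 0 as 3 UMIs, so it does not measure a smaller difference. Cluster 18 had 138 and 53.3 CPM (-1.37, -2.56 to -0.37), in 19 of 86 and 3 of 34 cells, where 9.19% of genes were 2-fold lower. In macrophage or monocyte-like cells, 21 in WT and 9 in the KO-labelled library, all 20 Ptgs2 UMIs came from 1 WT cell. Airway secretory-like cells had 54.5 and 42.9 CPM (-0.35, -0.77 to 0.06). Ciliated-like, general capillary-like and aerocyte-like cells stayed at or below 13.7 CPM.

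**Figure D2:**
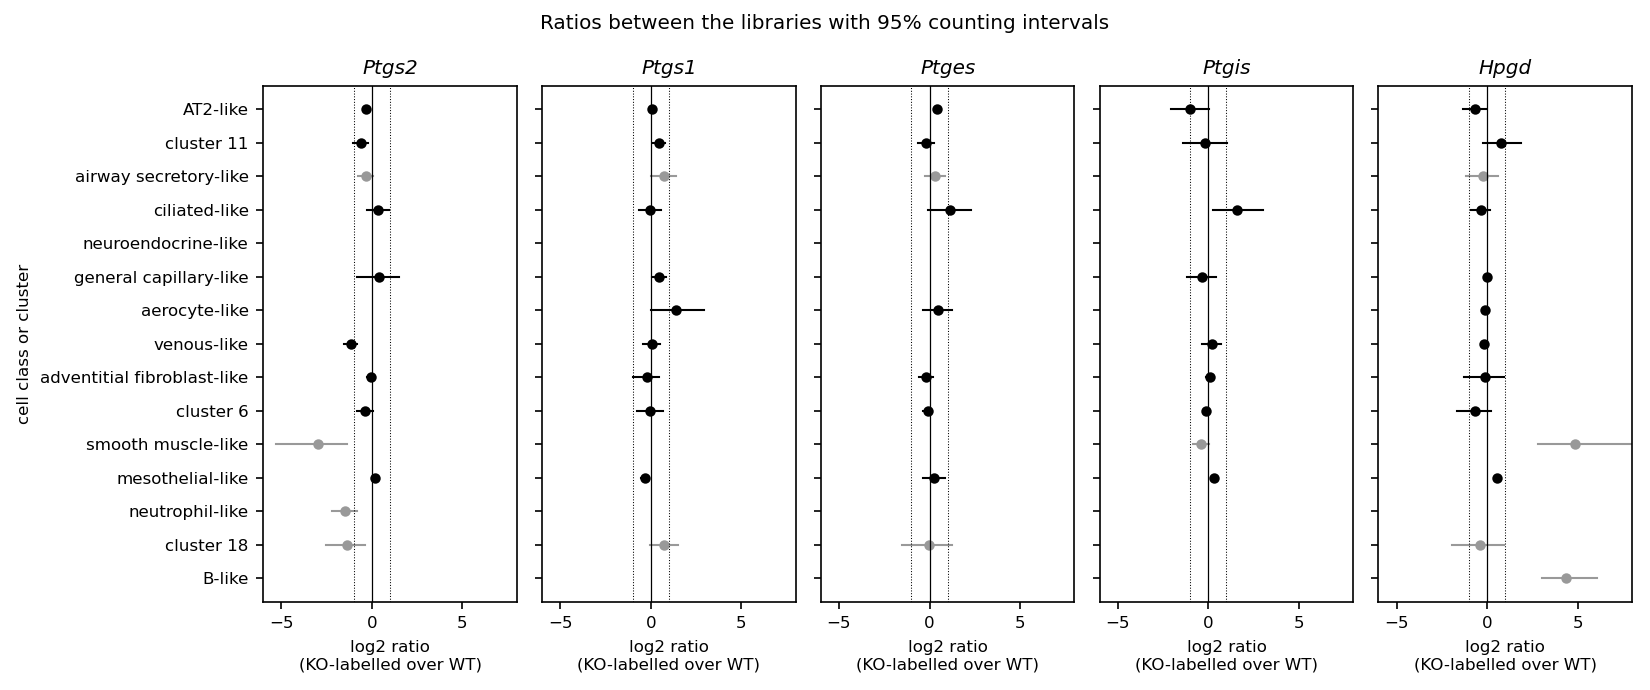
Log2 ratio of the KO-labelled over the WT level (x axis) in each compared class (y axis) for 5 genes, with 95% counting intervals. Black points are classes with 100 or more cells in each library and grey points smaller ones; dotted lines mark a 2-fold difference. The Ptgs2 points of venous-like (-1.18), neutrophil-like (-1.47), smooth muscle-like (-2.97) and cluster 18 cells (-1.37) lie left of the dotted line, and the Hpgd points of B-like (4.35) and smooth muscle-like cells (4.84) far to the right.

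Ptges, the inducible prostaglandin E synthase, was highest per UMI in fibroblasts. Cluster 6 had 199 CPM in WT (183 to 217) and 185 in KO-labelled cells (160 to 213), and adventitial fibroblast-like cells 149 and 132. Neither ratio left 0, at -0.11 (-0.35 to 0.13) and -0.18 (-0.58 to 0.21). AT2-like cells held 60.5% of the WT and 87.9% of the KO-labelled Ptges UMIs. Their level was 77.5 CPM in WT (74.0 to 81.1) and 102 CPM in KO-labelled cells (98.8 to 105), a log2 ratio of 0.40 (0.32 to 0.48). The alternatives gave 0.27 with thinned cells to 0.52 with TMM scaling, under 2-fold throughout. A UMI was in 33.7% and 39.7% of AT2-like cells, or 7.39% and 8.74% when thinned, beside 1.15% and 2.05% of ciliated-like cells. The ciliated-like level was 2.05 and 4.4 CPM (1.10, -0.07 to 2.31), where RNA from AT2 cells would give 0.921 and 4.38 CPM.

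The AT2-like cells came from 6 clusters, and their Ptges levels differed more between clusters than between libraries. Cluster 0, led by Sftpc and Acoxl, had 50 CPM in WT and 58.2 in KO-labelled cells. Cluster 8, led by the chemokines Cxcl3 and Cxcl5, had 121 and 160 CPM. Cluster 10, led by Ly6i, had 125 and 184 CPM (log2 ratio 0.56, 0.33 to 0.80). The intervals of clusters 8 and 10 overlapped in both libraries. Clusters 1 and 2 had 77.7 and 89.5, and 89.6 and 124 CPM. Cluster 15 alone was lower in the KO-labelled library, with 80.1 and 69.7 CPM (-0.20, -0.72 to 0.31). The Ptgs2 ratio was negative in all 6 clusters, from -0.65 in cluster 15 and -0.62 in cluster 8 to -0.17 in cluster 0. Ptgs1 was lowest in cluster 0, at 184 and 171 CPM, and highest in cluster 8, at 270 CPM in the KO-labelled library.

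**Figure D3:**
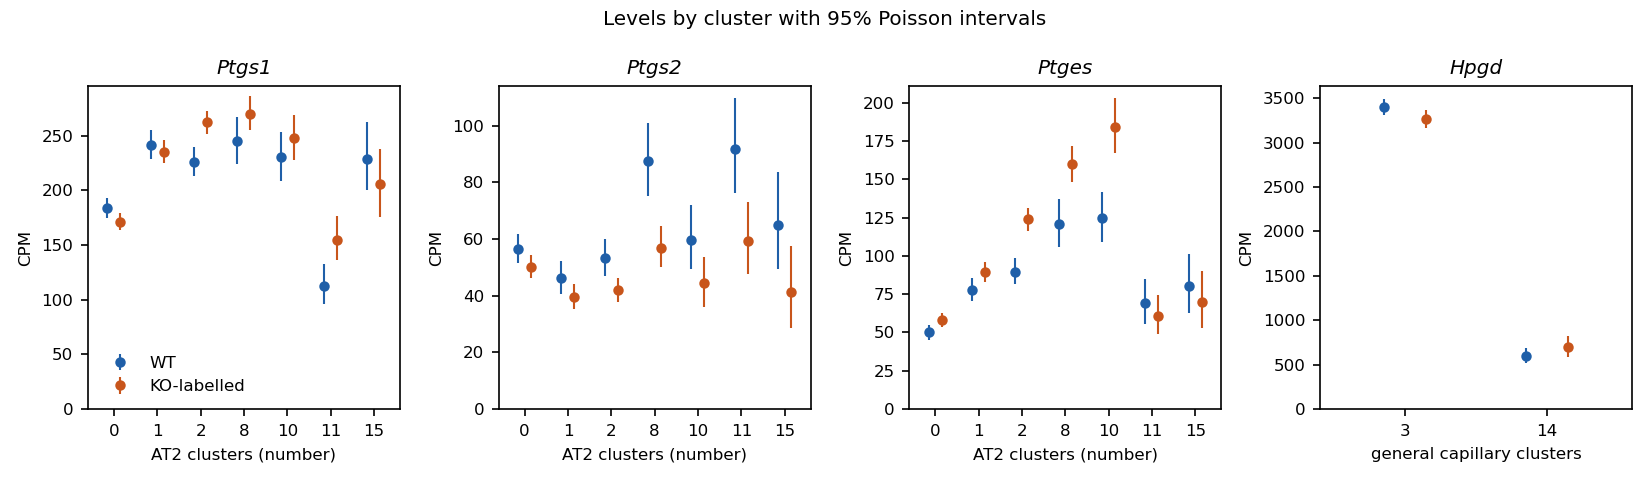
CPM of Ptgs1, Ptgs2 and Ptges in the 6 AT2-like clusters and cluster 11, and of Hpgd in the general capillary-like clusters (x axes: cluster number), with 95% Poisson intervals; blue is WT and orange KO-labelled. Ptges climbs from 50 CPM in WT cluster 0 to 184 CPM in KO-labelled cluster 10, every KO-labelled Ptgs2 point lies below its WT partner, and Hpgd is several-fold lower in cluster 14 than in cluster 3.

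Ptgis, prostacyclin synthase, was a gene of mesothelium and mesenchyme. Mesothelial-like cells had 822 CPM in WT (797 to 848) and 1018 in KO-labelled cells (968 to 1071), a log2 ratio of 0.31 (0.22 to 0.39). A UMI was in 92.2% and 95.7% of these cells, or 54% and 65.1% when thinned. In AT2-like cells, which were deeper, the share was 0.552% and 0.268%, or 0.834 and 0.414 CPM (-1.01, -2.08 to 0.03). Cluster 6 had 609 and 558 CPM (-0.13, -0.26 to 0.01), adventitial fibroblast-like cells 470 and 504 (0.10, -0.10 to 0.30) and smooth muscle-like cells 642 and 487 (-0.40, -0.85 to 0.04). Among endothelial classes the venous-like cells stood out with 170 and 194 CPM, against 19.4 and 15.1 in general capillary-like and 9.05 and 1.24 in aerocyte-like cells. Over whole libraries Ptgis was 139 CPM in WT and 52.2 in KO-labelled cells, although its level within mesothelial-like cells was higher in the latter. Mesothelial-like cells numbered 1024 in WT and 276 in the KO-labelled library. In ciliated-like cells the ratio of 1.60 rested on 8 and 15 UMIs, 8 of the latter in 1 cell.

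Tbxas1, thromboxane synthase, and Alox5ap, the protein that presents arachidonic acid to 5-lipoxygenase, were highest in immune clusters. Macrophage or monocyte-like cells, too few for a ratio, had 214 and 322 CPM of Tbxas1, with a UMI in 16 of 21 and 7 of 9 cells. Cluster 18 had 27.9 and 77.0 CPM, from 15 and 13 UMIs (log2 ratio 1.46, 0.27 to 2.63). In AT2-like cells Tbxas1 was at 0.834 and 0.8 CPM. Alox5ap reached 1193 CPM in WT and 1179 in KO-labelled neutrophil-like cells (-0.02, -0.46 to 0.40), in which Ptgs2 was lower. In the same cells the Alox5ap ratio was 0.74 when marked doublets were kept and 0.59 as a mean over cells. Cluster 18 had 384 and 444 CPM of Alox5ap (0.21, -0.19 to 0.60) and macrophage or monocyte-like cells 427 and 373. Ptprc, the CD45 gene, was seen in 95.2% and 88% of neutrophil-like cells and in 52.3% and 50% of cluster 18, but in at most 1.3% of mesothelial, fibroblast and capillary-like cells. The immune classes are thus what passed the sort and do not stand for the immune cells of the lung.

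Ptgds, a prostaglandin D synthase, had 43 of its 56 WT UMIs in mesothelial-like cells, but 3 of 36 in the KO-labelled library, where 26 were in AT2-like cells and 7 in cluster 11. The mesothelial-like level was 8.77 CPM in WT, from 40 cells with a UMI, and 2 CPM in KO-labelled cells, from 3. The log2 ratio was -2.13 (-4.46 to -0.49), and with thinned cells 1.08% and 0.735% of cells had a UMI. In AT2-like cells 12 and 26 UMIs gave 0.5 and 0.717 CPM. Alox15, the 12/15-lipoxygenase, had 16 WT UMIs and 1 KO-labelled UMI in mesothelial-like cells and 13 and 3 in airway secretory-like cells. In neither class did it reach the 20 UMIs needed for a ratio.

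Hpgd encodes the dehydrogenase that inactivates prostaglandins E2 and F2 alpha (chromosome 8 from 56294585 to 56321043, GRCm38, plus strand, 7 exons). It was counted more than any other member, with 20147 UMIs. General capillary-like cells had 2958 CPM in WT (2883 to 3034) and 2909 in KO-labelled cells (2822 to 2998), a log2 ratio of -0.02 (-0.08 to 0.03). Venous-like cells had 2302 and 2029 CPM (-0.18, -0.33 to -0.03), and aerocyte-like cells 2090 and 1915 (-0.13, -0.22 to -0.03). Lymphatic-like endothelial cells, too few for a ratio, were far lower, with 99.1 CPM in 39 WT cells and no UMI in 12 KO-labelled cells. A UMI was in 82.5% and 87.3% of general capillary-like cells, or 78.7% and 83.7% when thinned, and in 1.19% and 0.768% of AT2-like cells. The general capillary-like cells were not uniform. Cluster 3, the main one, had 3400 CPM in WT and 3266 in KO-labelled cells. Cluster 14, marked by the interferon-induced chemokines Cxcl9 and Cxcl10, had 601 (518 to 692) and 696 CPM (586 to 821). It was the low cluster in both libraries.

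Of the classes above 100 CPM of Hpgd with 100 or more cells, mesothelial-like cells had the widest difference, 592 CPM in WT (570 to 613) and 871 in KO-labelled cells (825 to 920). The log2 ratio was 0.56 (0.46 to 0.65), between 0.40 and 0.65 over the alternatives. The share of cells with a UMI was 45.9% (42.8 to 49.0) and 48.9% (42.9 to 55.0), and cells with a UMI held on average 6.17 and 9.67. Cells without any Hpgd UMI numbered 554 of 1024 and 141 of 276, while 55 and 29 cells had 15 or more. The 103 richest WT cells held 64% of the UMIs and the 28 richest KO-labelled cells 63.5%, against 33.3% for the 133 richest WT general capillary-like cells. Cldn5, an endothelial junction gene, was at 33.2 and 1.24 CPM in the mesothelial-like cells with Hpgd, from 80 UMIs and 1 UMI. In those without Hpgd it was at 10.4 and 0 CPM, and in general capillary-like cells with Hpgd at 3697 and 4198 CPM. The part of endothelial RNA in the mesothelial-like Hpgd level was not tested. Slpi, a protease inhibitor chosen after its values were seen, was at 4046 CPM in WT mesothelial-like cells with Hpgd and 1095 in those without, and at 4337 and 1218 CPM in KO-labelled cells.

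**Figure D4:**
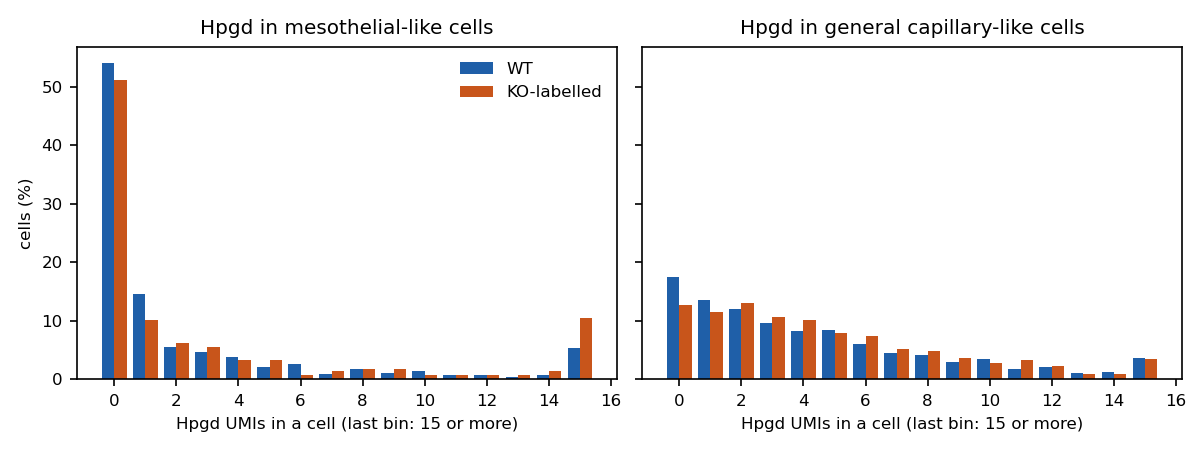
Share of cells (y axis, percent) by number of Hpgd UMIs per cell (x axis, last bin 15 or more) in mesothelial-like and general capillary-like cells; blue is WT and orange KO-labelled. In the mesothelial-like cells 554 of 1024 WT and 141 of 276 KO-labelled cells are at 0 while 55 and 29 are in the last bin; in the general capillary-like cells most cells have a few UMIs.

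The 2 largest Hpgd ratios came from a handful of cells. In B-like cells the log2 ratio was 4.35 (3.01 to 6.06), from 5 WT and 38 KO-labelled UMIs. Of the 38, 28 were in 1 cell, and the 4 KO-labelled cells with Hpgd had 3802 CPM of Cldn5 against 24.2 CPM in the other B-like cells. In smooth muscle-like cells the ratio of 4.84 (2.84 to 7.96) came from 2 and 25 UMIs, 24 of them in 1 cell. The 2 KO-labelled cells with Hpgd had 1004 CPM of Cldn5 against 17.8 CPM in the others.

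Ptger4 encodes EP4, a receptor of prostaglandin E2, and was the one receptor among the members. Its main structural cells were the fibroblasts. Cluster 6 had 80.4 CPM in WT (70.1 to 91.9) and 58.6 in KO-labelled cells (45.0 to 74.9), a log2 ratio of -0.46 (-0.89 to -0.05). Adventitial fibroblast-like cells had 37.8 and 19.4 CPM, from 77 and 10 UMIs (-0.97, -2.08 to -0.01). Both were lower in the KO-labelled library by intervals that nearly reach 0, and the alternatives gave -0.82 to -0.41 in cluster 6 and -1.12 to -0.36 in adventitial fibroblast-like cells. General capillary-like cells had 18 UMIs in 9 WT cells and none in 881 KO-labelled cells, which allows up to 2.05 CPM. The highest levels were in classes too small for a ratio, 125 CPM in 23 WT NK-like cells and 169 CPM in 9 KO-labelled macrophage or monocyte-like cells. Cluster 18 had 27.9 and 59.2 CPM, from 15 and 10 UMIs (1.08, -0.23 to 2.34). The gene shares 11676 bases with Ttc33 on the opposite strand. Ptgis, Tbxas1 and Alox5ap also overlap genes on the opposite strand, and whether the counting used strand is not given in the sources used here.

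The rest of the pathway was read from a list of 56 other genes, of which 42 had at least 20 UMIs in a compared class. In 245 pairs 5 (2.04%) were at least 2-fold higher and 16 (6.53%) at least 2-fold lower in the KO-labelled library, near the 2.31% and 5.58% of all genes. The median log2 ratio was -0.16. Only 2 of the 56, Ptgdr2 and Pla2g2f, had no UMI at all, and 28 reached 50 CPM in a class.

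Among genes of arachidonic acid release, Pla2g4a, the cytosolic phospholipase that feeds the cyclooxygenases, was highest in venous-like cells, at 255 and 180 CPM (log2 ratio -0.50, -1.01 to -0.01). Smooth muscle-like cells had 130 and 57.8 CPM (-1.17, -2.58 to 0.02). Pla2g1b was an AT2 gene at 236 and 210 CPM, and its higher ratios in general capillary-like (2.31) and mesothelial-like cells (1.80) rested on 10 and 36, and 16 and 17 UMIs. Its levels there were 4.97 and 24.6, and 3.26 and 11.4 CPM, where RNA from AT2 cells would give 4.06 and 24.1, and 3.4 and 9.22 CPM. Pla2g4c, at 53.3 and 14.3 CPM in airway secretory-like cells, was lower in the KO-labelled library (-1.90, -2.62 to -1.25). Pla2g16, listed as Plaat3, was a ciliated gene at 346 and 354 CPM. Anxa1, which restrains phospholipase activity, had 1248 and 1298 CPM in ciliated-like cells and 1086 and 974 in mesothelial-like cells. Its ratios past 2-fold were in aerocyte-like (1.59), B-like (2.83) and cluster 18 cells (-1.12). Pla2g12a reached 62.3 CPM in WT neuroendocrine-like cells, and it and Pla2g16 were lower in B-like cells (-1.03 and -1.51).

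Among synthases Ptges3, a chaperone with prostaglandin E synthase activity, was highest in ciliated-like cells at 922 and 997 CPM, as was Cbr1 at 293 and 260. Akr1b3 stood at 84.6 and 62.8 CPM in AT2-like cells. Hpgds, the haematopoietic prostaglandin D synthase, was low, and in ciliated-like cells 66 and 14 UMIs gave 11.3 and 3.85 CPM (-1.55, -2.50 to -0.70). Prxl2b was lower in airway secretory-like cells, from 29 and 4 UMIs (-1.39). Slco2a1, the transporter that brings prostaglandins to Hpgd inside the cell, had its highest levels in capillary and venous endothelial classes. These were 1280 and 934 CPM in aerocyte-like (-0.45, -0.59 to -0.32), 1093 and 939 in general capillary-like and 644 and 544 in venous-like cells. It was also in AT2-like cells at 252 and 274 CPM, which held 6052 of its 12435 WT and 9949 of its 13116 KO-labelled UMIs, where Hpgd was at 1.96 and 1.21 CPM. Its B-like ratio of 2.71 came from 7 and 17 UMIs, in a class where Sftpc stood at 5250 and 56405 CPM. The part of AT2 RNA in this Slco2a1 ratio was not tested. Ptgr1 was lower in cluster 6 (15.6 and 6.51 CPM, -1.26) and in cluster 18 (-2.09), and Ptgr2, Zadh2 and Abcc4 reached at most 79.9, 52.4 and 62.4 CPM.

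Among prostanoid receptors none of 12 pairs was 2-fold apart, too few pairs to differ from the 2.31% higher and 5.58% lower of all genes. Ptger3 was mesothelial, at 41.4 and 66.8 CPM (0.69, 0.33 to 1.04), and Tbxa2r, the thromboxane receptor, was aerocyte-like, at 156 and 164 CPM (0.08, -0.27 to 0.42). On the leukotriene side Alox5 reached 121 and 120 CPM in neutrophil-like cells from 22 and 6 UMIs. Ltc4s had 207 CPM in WT macrophage or monocyte-like cells, and Cyp4f18, which oxidises leukotriene B4, had 297 and 240 CPM in neutrophil-like cells. Ltb4r1, its receptor, had 20 and 2 UMIs there (-1.46, -4.60 to 0.58). Dpep1, which cleaves leukotriene D4, was a fibroblast gene at 570 and 632 CPM in cluster 6 and 475 and 498 in adventitial fibroblast-like cells. Mgst3 had 406 and 361 CPM in aerocyte-like cells. Mgst2 was lower in the KO-labelled library in AT2-like (7.97 and 3.95 CPM, -1.01), ciliated-like (23.4 and 10.7 CPM, -1.12) and aerocyte-like cells (-1.94). Cysltr1 stood at 42.5 and 70.7 CPM in venous-like cells, from 18 and 20 UMIs. The other pairs past 2-fold were Alox12 in AT2-like cells (-1.04), Ggt1 in ciliated-like cells (-1.90) and Cyp4f18 in B-like cells (-1.31), all from 35 UMIs or fewer. Lta4h, Abcc1, Ggt5, Cysltr2 and Fpr2 also reached 50 CPM in a class, without a 2-fold ratio.

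**Figure D5:**
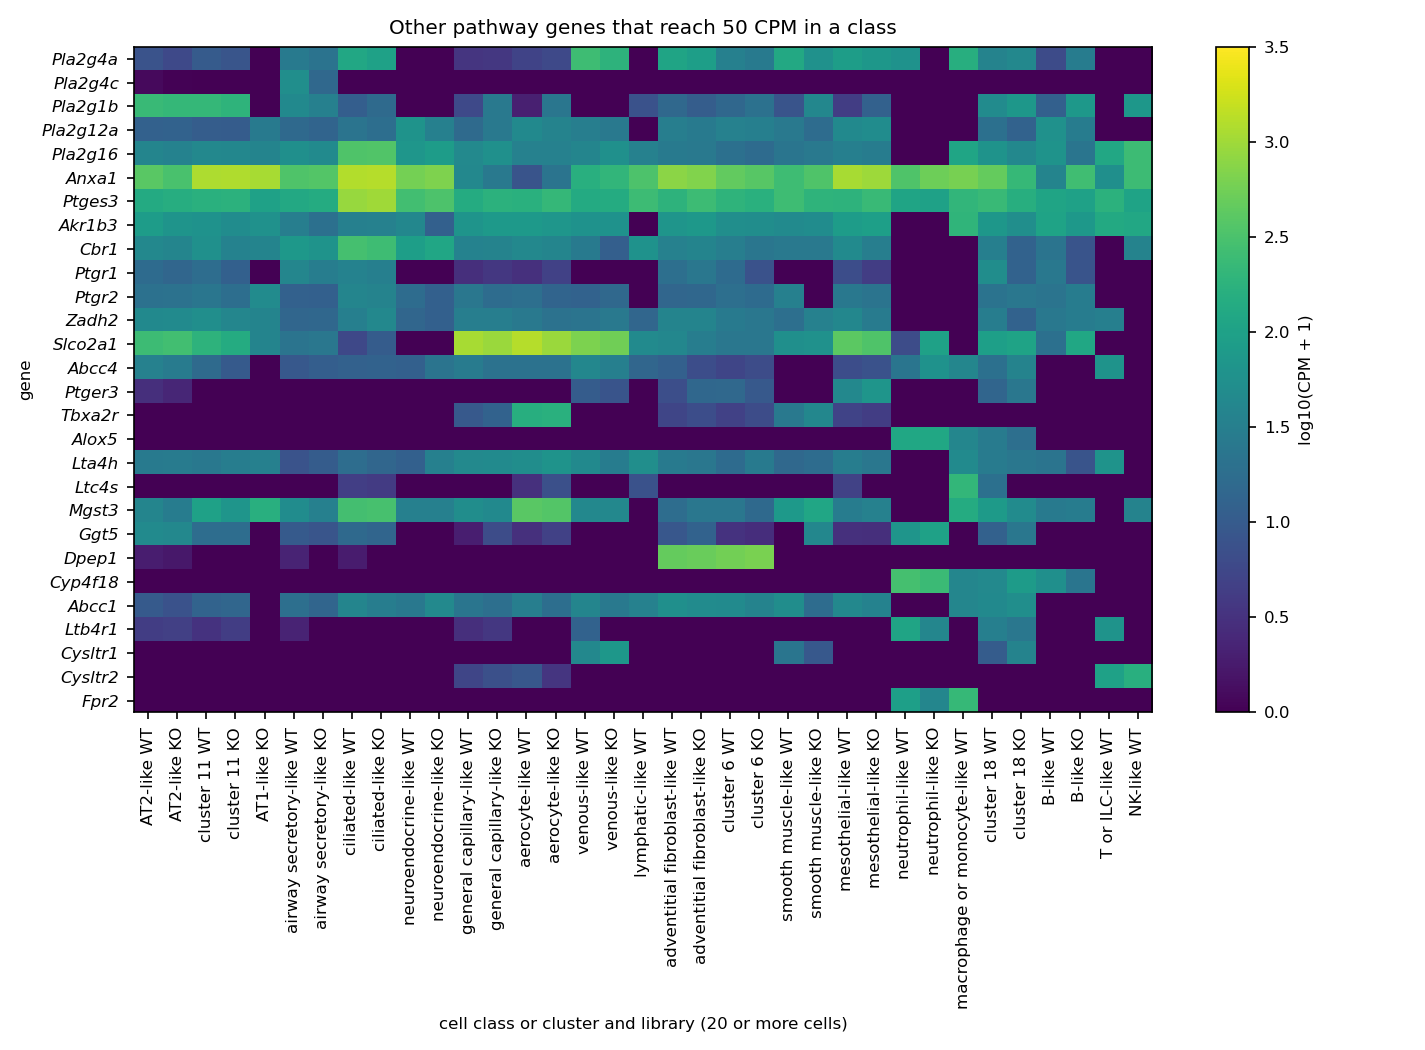
Levels of the 28 other pathway genes that reach 50 CPM in a class (rows), in the same columns and scale as the plot of the 10 genes. Slco2a1 is brightest in the general capillary-like, aerocyte-like and venous-like columns. Dpep1 is brightest in cluster 6 and the adventitial fibroblast-like columns, and Ptges3 and Anxa1 in the ciliated-like columns.

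The levels over 35 points, each a class or cluster of 20 or more cells in 1 library, were compared between genes with log2 of CPM plus 10. Of 9820 genes those most like Hpgd were Sema6d (Pearson r 0.93), Hs3st1 (0.92) and Sh3tc2 (0.92). Ptgis was like the matrix genes Bgn (0.97) and Eln (0.94). Alox5ap was most like Cd300c2 (0.97), Klra2 (0.96) and Wfdc17 (0.96), and Tbxas1 most like Ccl6 (0.96), Clec4a2 (0.95) and Clec4a3 (0.95). Lower values led for Ptgs2 (Sat1 0.85, Olr1 0.76 and Tlr4 0.75), Ptgs1 (Adk 0.78, Il33 0.71 and Lrp2 0.70), Ptges (Phlda1 0.78, Slc1a3 0.76 and Apoe 0.76) and Ptger4 (Apbb1ip 0.80, Dock10 0.78 and Sh3kbp1 0.78). Ptgds and Alox15 stayed below 50 CPM in all classes and were not compared. Between members the highest value was 0.89, for Tbxas1 and Alox5ap, and next 0.57, for Ptgs2 and Ptgis. The points share libraries and depth, and both libraries give a point for most classes.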

How the data were processed

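Droplet 3' single-cell RNA libraries were measured, 1 per genotype. The deposited values are raw counts of UMIs per gene and barcode, made by the authors with Cell Ranger (7.0.0 per the file headers; 7.0.0 and 7.1.0 with build mm10 per the submitters' processing notes). How barcodes were chosen, and whether intronic reads or strand were used, is not given in the sources used here. The libraries held 11776 and 9771 barcodes with 57028943 and 51529241 UMIs (WT, KO-labelled), and 0 value columns were left unmapped.

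Barcodes under 500 genes or above 15% mitochondrial UMIs were dropped. Scrublet (scanpy 1.11.5, expected share 8%) marked 617 (5.69%) and 175 (1.92%) as doublets, which were removed. The libraries shared 30 barcodes, 27 among kept cells. Both were clustered together (2000 variable genes, 30 principal components, 15 neighbours, Leiden resolution 1, leidenalg 0.10.2). Kept out of the clustering were the 10 genes, the pathway list, Plaur, genes of mitochondria, ribosomes and haemoglobin, and a few sex-linked genes such as Xist and Ddx3y. A cluster of 20 or more cells took a class name when at least 3 of its markers were among the 50 leading genes, no other class had as many, and the top 10 genes did not favour another class. The leading genes are those furthest above the median cluster (fold, 10 CPM added to both) among genes in at least 20% of its cells.

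Each class total in each library scaled the summed UMIs to CPM. Log2 ratios are KO-labelled over WT, with exact conditional binomial 95% intervals, Poisson intervals for CPM and Clopper-Pearson intervals for shares. A ratio needed 20 UMIs over both libraries and classes of 20 cells in each, and a count of 0 allows a level of up to 3 UMIs. In ratios, also those under the alternatives, a count of 0 was entered as 3 UMIs. The level that RNA from AT2-like cells would give elsewhere was scaled by Sftpc, and that from airway secretory-like cells by Scgb1a1, as if all such UMIs were foreign. Thinned shares draw 1000 UMIs per cell and leave out 428 and 262 shallower cells. With 1 library per genotype nothing was tested for significance. The procedure was tested on simulated data drawn as independent Poisson counts, the model that the intervals assume. That cannot check spread between cells or between libraries. Pathway genes are named where they reach 50 CPM in a class or are 2-fold apart, and 3 most similar genes per member, of which 1 is not reported here. The members, gene lists and rules were chosen with earlier results of these data known. Alternatives were other cell filters, doublet handling, clustering, scaling (edgeR 4.0.16 TMM factors, median of ratios), thinning, averaging and UMI minimums, with classes carried over by the majority of shared cells; leaving out shared barcodes and leaving genes of other compartments out of the totals were added after the data were seen. Gene positions are from GENCODE M21 (GRCm38), where 32158 of 32285 identifiers were found, and promoter sequences from RefSeq.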

Additional observations from a re-analysis of the deposited data

Results flagged for a closer look

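Single genes moved in opposite directions in different classes, which was not tested because each class has 1 library per genotype. Ptgs1 had a log2 ratio of 1.41 in aerocyte-like cells, from 7 and 15 UMIs, and of -0.32 in mesothelial-like cells, from 897 and 219 UMIs. Hpgd had a ratio of 0.56 in mesothelial-like cells, from 2901 and 1305 UMIs, and of -0.69 in AT2-like cells, where 47 and 44 UMIs gave 1.96 and 1.21 CPM. The 95% counting intervals of each pair lay on opposite sides of 0. The aerocyte-like and AT2-like values rest on low levels: the first was -0.14 with marked doublets kept and 0.02 with thinned cells, and the second 0.01 under a stricter cell filter.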

How the results depend on the processing

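Of 938 values of the 63 ratios under the alternatives, 863 stayed within the 95% interval of the reported ratio and 71 moved out of it. The 863 include the values under the minimum of 100 UMIs, which leaves each ratio it keeps unchanged and so could not move any. The other 4 turned the sign of a 2-fold ratio: Ptgs1 in aerocyte-like cells (-0.14 with marked doublets kept), Ptges in ciliated-like cells (-0.40 with the highest doublet scores removed and -0.88 with thinned cells) and Ptgis in ciliated-like cells (-1.15 with marked doublets kept), all from 28 UMIs or fewer. The -0.88 is not a reversal in counts. Thinned WT ciliated-like cells had no Ptges UMI, entered as 3 UMIs, beside a UMI in 0.172% of 582 KO-labelled cells. The cause of the other sign changes was not tested. The 7 members' pairs that were 2-fold higher became 4 with the highest doublet scores removed, 0 with thinned cells, 26 with no UMI minimum and 0 with at least 100 UMIs. The 6 that were lower became 10 with a looser cell filter, 12 with marked doublets kept, 10 with the highest doublet scores removed, 17 with no minimum and 2 with at least 100 UMIs. For the other pathway genes, the 5 higher pairs became 8 with a looser filter, 2 with marked doublets kept, 2 with the highest scores removed, 8 at resolution 0.5, 2 with thinned cells, 122 with no minimum and 0 with at least 100 UMIs, and the 16 lower pairs became 10 with thinned cells, 49 with no minimum and 4 with at least 100 UMIs. Fewer pairs are measured with thinned cells and under the higher minimum, and more with no minimum. The share over all genes was not computed under the alternatives, so these counts describe the processing and not the members. Under TMM factors ratios shifted by 0.12 in AT2-like, 0.26 in airway secretory-like and -0.27 in neutrophil-like cells. No paired analysis was possible because each genotype has 1 library. Depth limits Ptgds, Alox15 and every ratio in the classes under 100 cells.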

Other observations

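Some AT2-like and mesothelial-like cells carried UMIs of more than one of these genes. Of the 2361 WT AT2-like cells with Ptgs1, 38.8% (36.8 to 40.8) also had Ptges, beside 24.4% of those without Ptgs1, and in the KO-labelled library 47.1% (45.5 to 48.7) beside 26.3%. Cells with Ptgs1 were deeper, with medians of 6621 against 5919.5 UMIs in WT and 6507.5 against 5550.5 in KO-labelled cells. With cells thinned to 1000 UMIs the shares were 8.53% beside 7.14% in WT and 9.48% beside 8.56% in KO-labelled cells. For AT2-like cells with Ptgs2 the share with Ptges was 34.2% beside 33.6% in WT and 38.6% beside 39.9% in KO-labelled cells. In mesothelial-like cells 97.2% of WT and 100% of KO-labelled cells with Ptgs2 also had the prostacyclin synthase Ptgis, beside 90.6% and 93.8% of those without. Their median depth was 5575.5 against 4596 UMIs in WT and 6162 against 5015 in KO-labelled cells, and in thinned cells the shares were 55.8% beside 53.8% and 76.7% (of 30 cells) beside 63.6%. In cluster 6, 42 of 65 WT cells with Ptgs2 also had Ptges (64.6%, 51.8 to 76.1), beside 36.3% of those without, but their median depth was 5261 against 2796 UMIs. In thinned cells this became 30.4% of 23 cells beside 15.3%.

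Genes chosen after their values were seen also varied with the members among cells of a class. Mesothelial-like cells with Ptgs2 had 1579 CPM of the monocyte chemokine Ccl2 in WT and 1384 in KO-labelled cells, beside 724 and 550 CPM in cells without. Adventitial fibroblast-like cells with Ptgs2 had 1185 and 1052 CPM of the neutrophil chemokine Cxcl1, beside 649 and 345 CPM. AT2-like cells with Ptges had 2412 and 5916 CPM of Retnla, beside 1281 and 2518 CPM, and 1504 and 2218 CPM of the alarmin Il33, beside 961 and 1278 CPM. The AT2-like class pools clusters that differed in both Ptges and Retnla. In WT these were at 50 and 484 CPM in cluster 0, and at 121 and 3533 CPM in cluster 8. Neither cluster nor depth was held fixed, so whether these AT2 links hold within a cluster was not tested.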
